A study of Drosophila melanogaster with 9 samples.

Results

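RNA-seq of a Lint-O mutant of Drosophila melanogaster was compared with RNA-seq of the yw control across all genes of 1 count table. The comparison uses 6 of the 9 libraries of the series, 3 of the Lint-O mutant and 3 of yw, and every one of the 17611 genes in the table was considered. The yw strain, with the genotype y1 w1118, served as the wild-type control. The Lint-O mutant is a single line in the same y1 w1118 background, in which CRISPR removed 1 nucleotide from the first coding exon of the gene. The remaining 3 libraries came from an L(3)mbt mutant and entered the fit, and they are used here only for a direct comparison of the mutants. The study lists that stock as w* with the temperature-sensitive allele L(3)mbt ts1 over a balancer chromosome, not in the y1 w1118 background. The labels give the material of all groups as L3 larval brain, L3 being the last stage before the pupa, kept at 29 °C for 5 to 6 days after eggs were laid at 25 °C. The study calls its RNA-seq samples biological triplicates, and what was kept separate between replicates is not given in the sources used here, so p-values measure the spread between these libraries.

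Lint-O is a chromatin protein with PHD fingers and a SAM domain. It was isolated as a partner of L(3)mbt, a protein with MBT repeats that binds chromatin and keeps germline genes silent in somatic cells. Loss of L(3)mbt is known for tumours of the larval brain in which genes of the ovary and testis are switched on.

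The labelled tissue was checked against marker genes before any comparison, with CPM (counts per 1000000 counts) as the level. Of 7 neuroblast markers 4 stayed under 1 CPM in all 6 libraries, among them the transcription factors ase and dpn. Of 7 neuron markers 4 did so, including the synaptic vesicle proteins nSyb and Syt1 and the active zone protein brp, and of 5 glia markers the glial determinant repo did so. The other members of these lists were detected. Among neuroblast markers wor was at 11.0 to 11.4 CPM in yw and 10.4 to 11.6 CPM in the mutant, insc at 25.7 to 31.3 CPM in yw and 22.4 to 24.6 CPM in the mutant and mira at 2.38 to 3.97 CPM in yw and 6.27 to 6.996 CPM in the mutant. The summed level of the list was 39.4 to 46.3 CPM in yw and 40.4 to 43.0 CPM in the mutant. Among glia markers loco was at 153 to 173 CPM in yw and 142 to 154 CPM in the mutant, moody at 71.7 to 83.4 CPM in yw and 69.96 to 80.4 CPM in the mutant, nrv2 at 71.0 to 94.2 CPM in yw and 78.5 to 87.2 CPM in the mutant and Eaat1 at 3.88 to 4.89 CPM in yw and 7.55 to 9.56 CPM in the mutant. Their list summed to 317 to 346 CPM in yw and 305 to 326 CPM in the mutant. Of the neuron, neuroblast and glia lists the last had the highest sum in every library. Of the neuron markers Syx1A was at 55.5 to 81.2 CPM in yw and 59.2 to 66.4 CPM in the mutant and cac is described with the ion channels, and the list summed to 146 to 213 CPM in yw and 245 to 274 CPM in the mutant. All 5 fat body markers were under 1 CPM as well. The neuronal RNA-binding protein elav was at 48.0 to 74.1 CPM in yw and 50.9 to 61.6 CPM in the mutant, over exons of which 34.22% overlap other genes. By contrast, tj, the transcription factor of somatic gonad cells, was at 403 to 623 CPM in yw and 526 to 598 CPM in the mutant, and fs(1)Yb, a piRNA factor of ovarian follicle cells, was at 138 to 166 CPM over the 6 libraries. The summed level of the 5 ovarian somatic markers was 842 to 1109 CPM in yw and 1061 to 1158 CPM in the mutant, and none of the 5 was called. The near absence of ase, dpn, repo, Syt1 and brp goes against the label brain. In the deposited table the yw columns are named EGFP, which the labels list beside the yw genotype. The study also treated cultured ovarian somatic cells with RNAi against the same genes, and the files do not settle whether these counts come from mutant larvae or from such cells. The libraries are therefore called by their labels, with no tissue assumed, and every value given for the Lint-O mutant is that of the libraries with this label, which could hold a knockdown in place of the mutation.

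Total counts were 18681293 to 31519287 in the 6 libraries, and 11154 to 11705 genes had a count in each. A count of 0 allows a level of up to 3 counts per library, or 0.0952 to 0.161 CPM, and such limits cover counting error only. Replicates of a group differed by 5.22 to 19.0 times the counting noise (chi-square per degree of freedom), with the highest values for pairs that hold yw replicate 3, and all were kept as separate samples.

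The targeted gene was examined first. Normalized counts of Lint-O (chrX:2698701-2701033, + strand) were 511, 503 and 505 in yw replicates 1 to 3 and 88.8, 79.9 and 83.7 in Lint-O mutant replicates 1 to 3. All 3 mutant libraries were thus at about one level and far under the control, with 16.6% of the yw mean left (log2 fold change -2.59 ± 0.13, standard error SE; DESeq2 adjusted p 2.52e-83). The 3 L(3)mbt mutant libraries had 580.1, 576 and 572 normalized counts, near the yw values. The RNA of the partner, l(3)mbt, rose 1.32-fold in the Lint-O mutant, from 2915, 3326 and 3371 in yw to 3896, 4352 and 4418, and the groups did not overlap (DESeq2 adjusted p 8.11e-07). Of the 16 tested genes on the list of LINT and dREAM repressor complexes 4 rose and none fell: l(3)mbt, mip130, the corepressor Lint-1 at 1.19-fold, and tomb, a testis member of the family, at 7.53-fold. The dREAM subunit mip120 had means of 1538 ± 19.2 (SD, n = 3) in yw and 1478 ± 37.6 (SD, n = 3) in the mutant, and Rbf, the retinoblastoma protein, 3093 ± 103 (SD, n = 3) and 3009.8 ± 92.9 (SD, n = 3), and neither was called.

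Of the 10422 genes that the test covered, 1396 were called higher in the Lint-O mutant (13.4%) and 784 lower (7.52%) at a DESeq2 adjusted p under 0.01. These shares are the background against which each list of genes below is read. Rises and falls differed in size. Of the genes called higher, 769 changed by 1 or more on the log2 scale and 47 by more than 5, and their median log2 fold change was 1.16. Of those called lower, only 25 fell by 1 or more, 691 fell by less than 0.5, and the median was -0.30. The median over all tested genes was 0.01. With total counts in place of the default scaling the balance moved further toward rises, to 1665 higher and 473 lower, so that the share of rises among the calls went from 64.0% to 77.9%. The number of small falls depends on that scaling. The number of falls was also sensitive to single libraries, at 500 without Lint-O mutant replicate 2, 520 without Lint-O mutant replicate 3 and 517 without yw replicate 2.

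**Figure D1:**
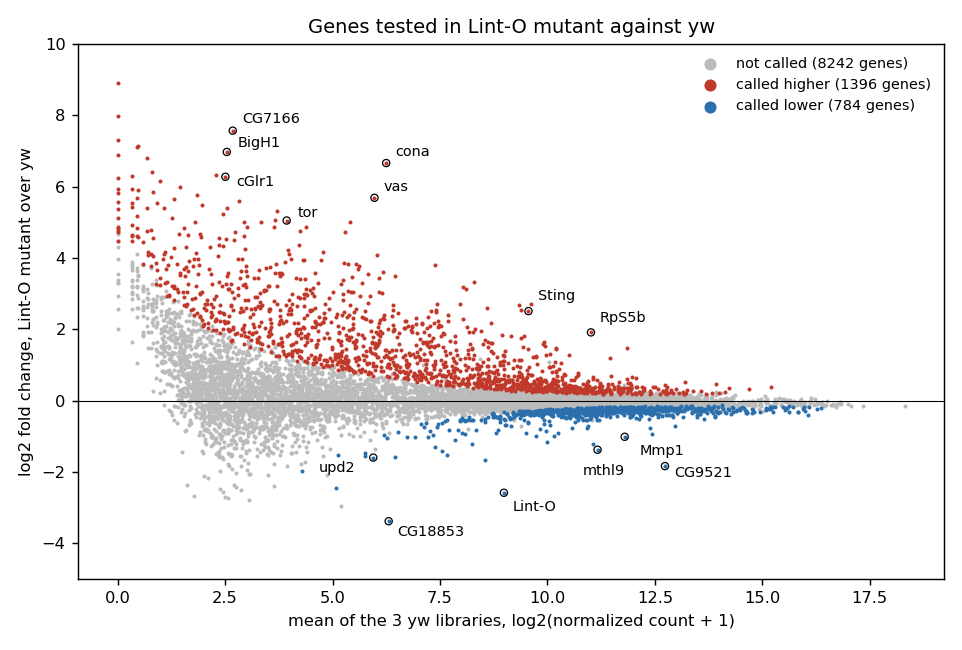
Each point is 1 of the 10422 tested genes, with the mean level in yw on the horizontal axis as log2(normalized count + 1) and the log2 fold change of the Lint-O mutant over yw on the vertical axis. Called genes (DESeq2 adjusted p under 0.01) are red where higher and blue where lower, and the rises reach far above the falls at low and middle yw levels, while the falls lie close to 0 among abundant genes.

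Rises were spread over all yw levels below about 1000 normalized counts, and called falls sat mostly among abundant genes. Of 1828 tested genes with a yw mean under 10 normalized counts 260 rose (14.2%), of 1768 genes between 10 and 100 it was 394 (22.3%), and of 2798 genes between 100 and 1000 it was 486 (17.4%). Among 4028 genes at 1000 or more, 256 rose (6.36%) and 621 fell (15.4%). No fall was called under 10 normalized counts, where low counts leave little room to call one. The bins also use the yw counts that enter the test, so these shares are a description. Of the 1396 risers 742 had at least 100 normalized counts in yw, so most were not silent in the control.

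By position, the shares of genes that rose were alike on the X chromosome and the arms 2L, 2R, 3L and 3R, at 12.4% to 14.0%. Chromosome 4 stood apart with 29 of 98 tested genes higher (29.6%) and 2 lower, with a median yw level of 655 normalized counts over its tested genes against 552 over all. The genes that rose there were rarer in yw than risers in general, with medians of 40.97 and 129. By class, protein-coding genes gave 1336 of the 1396 rises. Of 91 tested pseudogenes 18 rose and none fell. Of 661 long noncoding and antisense RNA genes 40 rose and 15 fell, and none of 76 snoRNA genes was called.

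**Figure D2:**
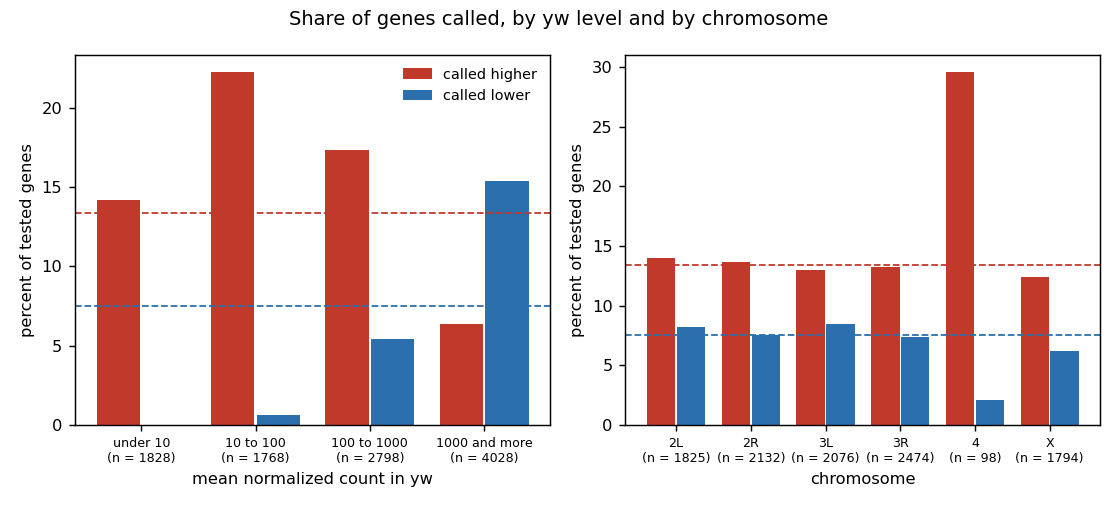
Percent of tested genes called higher (red) or lower (blue), by the mean normalized count in yw (left) and by chromosome (right), with the number of tested genes under each pair of bars and dashed lines at the shares over all tested genes. The share of called falls grows with the yw level, but low counts leave little room to call a fall. Called rises peak between 10 and 100 normalized counts, and the level bins use the yw counts that enter the test. Chromosome 4 has the highest share of rises.

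Some genes called in one direction lay side by side. Counted along each chromosome, 51 runs of 3 or more adjacent tested genes were called the same way, 41 of them higher with 147 genes and 10 lower with 33 genes. Over all tested genes 13.4% were called higher and 7.52% lower, and such shares alone give some runs. How many was not computed, so the counts do not show an effect of position. The longest run held 8 genes on chromosome 4 (chr4:227922-306481) and included NfI, a transcription factor, dpr7, a cell surface immunoglobulin protein, yellow-h, RhoGAP102A, CG1674 and Syt7, a synaptotagmin. Normalized counts of Syt7 were 52.8, 75.7 and 15.99 in yw and 802, 661 and 495 in the mutant, a 13.7-fold rise (3.77 ± 0.51, DESeq2 adjusted p 2.67e-12). Those of yellow-h were 56.0, 50.05 and 18.3 and 1534, 1323 and 1079. In both genes yw replicate 3 was the lowest of the control libraries, and all mutant libraries were above all controls. Further runs of 5 held the adjacent genes loh, ppk10, LManI, LManII and RluA-1 on 2L (chr2L:10442534-10474349) and Nazo with 4 neighbours on 3R (chr3R:8287169-8293609). Neighbours can share reads or regulatory DNA, and their part in these runs was not tested.

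The strongest rises by the naming rule were those of genes nearly silent in yw. CG7166 (chr3L:21620000-21625647, - strand), a cell surface immunoglobulin protein, had 5.39, 6.98 and 3.81 normalized counts in the yw libraries and 1053, 1050.3 and 839 in the mutant, a 189.8-fold rise (7.57 ± 0.38, DESeq2 adjusted p 1.19e-86). BigH1 (chr3R:14663450-14664822, + strand), the linker histone of germ cells and early embryos, had 3.23, 8.15 and 3.04 and 565, 582 and 557, a 126-fold rise. The synaptonemal complex gene cona (chr3R:18385828-18386887, + strand) went from 78.7, 64.0 and 82.2 to 7987, 7692 and 7366 normalized counts, a 101-fold rise that placed it among the abundant RNAs of the mutant. For all 3 genes the lowest mutant library was above the highest control, which the naming rule required, and the margin was wide. CG7202 was without counts in the 3 control libraries and had 83.9, 73.6 and 103 normalized counts in the mutant, at least 29.0-fold higher against a floor of 3 counts per library. With 2 counts in all over the yw libraries, CG33792 was 113-fold (95% counting interval 31.0 to 943) higher. The others of the 12 strongest were CG43156, CG9372, cGlr1, CG12857, CG33257, mthl7 and vas, with mutant means of 55.4 to 3225 normalized counts. Of the exons of CG9372 21.62% and of those of vas 24.64% overlap other genes. Of 581 genes covered over more than 99% by other exons 573 had no count in any of the 9 libraries, against 22.5% of genes with no overlap, so values of overlapping genes rest mainly on exons that no other gene shares.

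Several genes linked to Sting were among the rises by the naming rule, from low to middle rank, and were not counted as a list. In flies cGlr1 senses double-stranded RNA and makes a cyclic dinucleotide, which binds Sting and leads through the NF-kappaB factor Rel to antiviral genes. The receptor cGlr1 (chr2R:15855961-15857522, + strand) had 2.16, 3.49 and 8.37 normalized counts in yw and 446, 382 and 364 in the mutant, a 77.5-fold rise (6.28 ± 0.38, DESeq2 adjusted p 1.9e-59). Sting (chr2R:9842686-9845512, + strand) went from 722, 763 and 773 to 4416, 4284 and 4156, a 5.69-fold rise, and the replicates of each group lay close together. Srg3 and Nazo, both known as Sting-regulated genes, had 784, 552 and 678 and 942, 952 and 989 in yw and 4254, 3725 and 3677 and 3326, 2930.2 and 2821 in the mutant. These are rises of 5.78-fold and 3.15-fold, and the naming rule required groups without overlap. The pathway did not rise in every member. The second receptor, cGlr2, rose 1.59-fold, Rel 1.21-fold and key, the IKK gamma subunit, 1.40-fold, while vir-1, an RNA induced by viruses, fell to 50.7% of yw (1209, 997 and 1205 against 567, 565 and 599.7; DESeq2 adjusted p 1.26e-24). The genes cGlr2, Rel and key were picked for this account after their values were seen. pst, which limits virus growth in flies, rose 2.79-fold to 10339 ± 178 (SD, n = 3) normalized counts.

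Over the list of innate immunity genes 12 of 47 tested members rose and 3 fell, where the backgrounds are 13.4% and 7.52%. Besides Sting the members of largest change were the antifungal peptide gene Drsl5 at 4.97-fold, PGRP-SC2 at 4.94-fold and PGRP-SA at 4.07-fold, both recognition proteins for peptidoglycan. Normalized counts of PGRP-SC2 were only 18.3, 24.4 and 15.2 in yw and 92.7, 79.9 and 108 in the mutant. The 3 that fell were the NF-kappaB factor dl at 81.6% of yw, its inhibitor cact at 84.2% and the Toll ligand spz at 64.3%, a share under the background. The fall of cact was not called with total counts as the scaling, and those of cact and spz were not called without Lint-O mutant replicate 1, yw replicate 1 or yw replicate 3 (DESeq2 adjusted p up to 0.0147 and 0.03). Of 7 hemocyte markers 1 rose, Pxn, and 5 were under 1 CPM in all 6 libraries. The list summed to 23.7 to 25.6 CPM in yw and 24.2 to 31.2 CPM in the mutant, most of it from Pxn and from srp, at 14.0 to 16.6 CPM in yw and 11.1 to 15.2 CPM in the mutant.

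Genes of meiosis rose beyond cona. The synaptonemal complex holds homologous chromosomes together in meiotic prophase. Of 17 tested genes for this complex and meiotic cohesion 6 rose and 1 fell, pds5, which was not called in 11 of 16 alternative fits, edgeR, total count scaling and the replicate block among them. The lateral element gene c(2)M went from 146, 142 and 79.9 to 620.3, 635 and 554 normalized counts (5.02-fold), the transverse filament gene c(3)G from 279, 254 and 219 to 604, 620.3 and 465 (2.26-fold), and the cohesion gene sunn from 234, 239.8 and 212 to 686, 757 and 677 (3.11-fold). In each of them the groups were apart although the genes were far from silent in every control library. solo rose 22.8-fold from 5.58 ± 3.18 (SD, n = 3) normalized counts and corolla 1.62-fold. Of the exons of solo 16.87% overlap vas, which also rose, and the part of vas reads in the rise of solo was not tested. Of 30 genes for meiotic recombination and segregation 7 rose and none fell, led by the crossover gene hdm at 3.89-fold. The factors vilya and narya, which mark recombination sites, rose 1.97-fold and 1.74-fold, and bol, needed for male meiosis, rose 2.21-fold.

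Maternal and germ plasm genes rose from low and middle levels. Of 36 tested genes for germline translational control and germ plasm 14 rose, or 38.9%, and nclb fell. Pxt, the eggshell peroxidase, had no count in yw and 30.2, 26.3 and 29.6 normalized counts in the mutant, at least 9.55-fold higher against 3 counts per library. nanos, a translational repressor of the posterior pole, went from 1.08, 0 and 7.61 to 152, 152 and 163, and swa, which localises bicoid RNA in the oocyte, from 5.39, 1.16 and 7.61 to 105, 127 and 123.1. plu, of the kinase that drives the first embryonic cycles, had 3 counts over the yw libraries and was 18.2-fold (95% counting interval 5.86 to 91.1) higher. A further germline gene of middle rank was exu, with 126, 121 and 117 and 504, 545 and 564 normalized counts (4.43-fold). osk was not called, at 29.1, 11.6 and 7.61 in yw and 10.7, 7.36 and 6.16 in the mutant. Of its exons 84.11% overlap other genes, so its level is poorly measured. The summed level of 8 germline markers was 25.5 to 26.9 CPM in yw and 279 to 296 CPM in the mutant, 7 of the 8 rose, and in bulk RNA more germline cells and more germline RNA per cell cannot be told apart. The piRNA list gave 13 rises and 3 falls among 35 tested genes, and 15 rises and 1 fall with total count scaling. piwi itself, which ovarian somatic cells also use, was at 34368 ± 1592 (SD, n = 3) in yw and 33992 ± 719 (SD, n = 3) in the mutant and was not called. The study names piwi among genes raised in both mutant brains, and as little changed by Lint-O depletion in cultured ovarian somatic cells. The values here are unlike the former and like the latter.

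**Figure D3:**
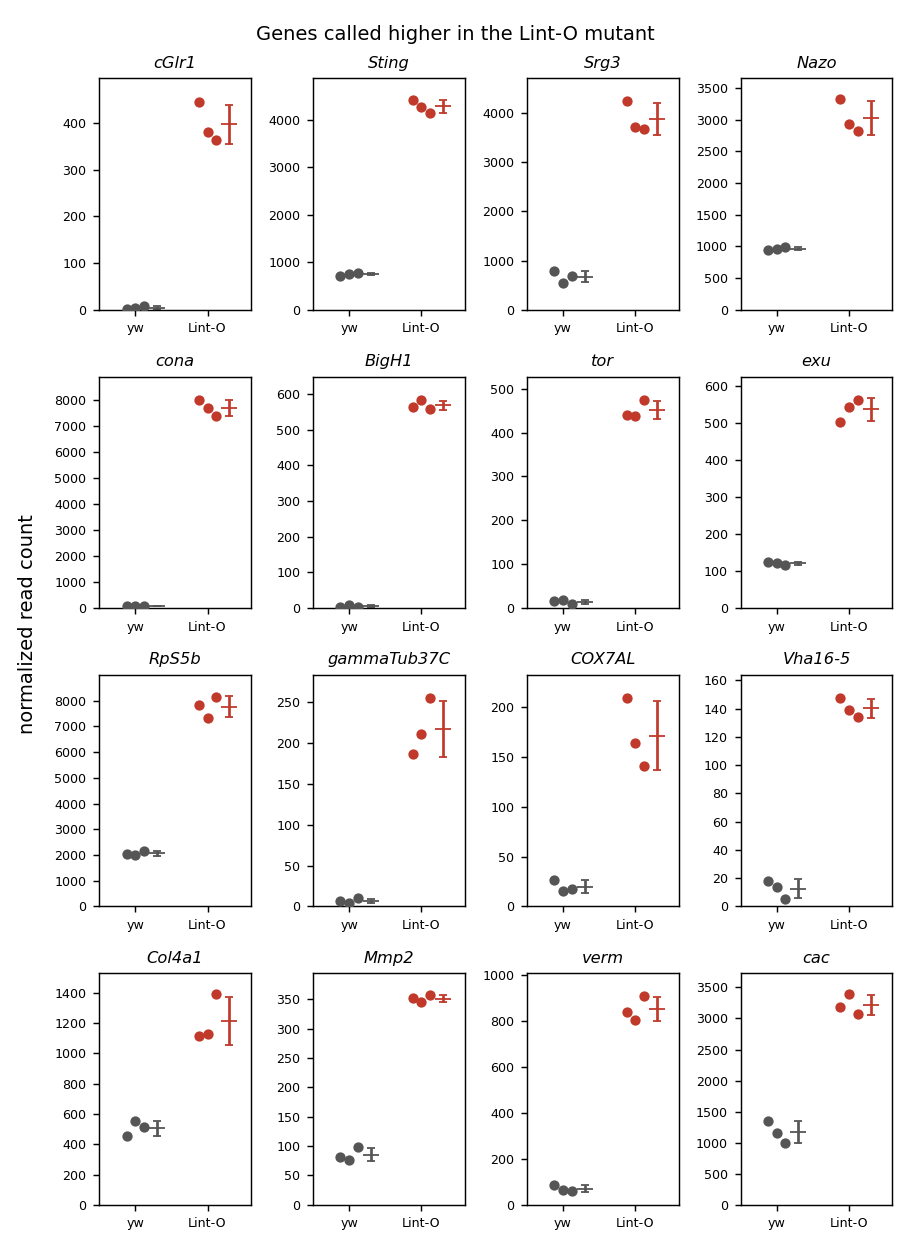
Normalized read counts of 16 genes called higher, with 1 point for each of the 3 yw (grey) and 3 Lint-O mutant (red) libraries and a bar for the mean ± SD at the right of each group. Each axis is linear and starts at 0, and in every gene shown the lowest mutant library lies above the highest yw library. Such separation was required of genes named as strongest, of middle rank or abundant.

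Copies of subunits of common cellular machines were among the rises, several of them known from the ovary or testis. Of 84 tested cytosolic ribosomal protein genes only the duplicates RpS5b, RpS19b and RpS15Ab rose. RpS5b (chr3R:14900432-14901563, - strand), which serves ribosomes in the ovary, had 2031, 1988 and 2171 normalized counts in yw and 7832, 7339.6 and 8136 in the mutant, a 3.76-fold rise (1.91 ± 0.06, DESeq2 adjusted p 2.76e-200). Its common counterpart RpS5a was at 79238 ± 4589 (SD, n = 3) in yw and 75681 ± 2241 (SD, n = 3) in the mutant and was not called. RpS19b rose 1.78-fold, and RpS19a was at 64822 ± 3475 (SD, n = 3) and 63215 ± 1799 (SD, n = 3). Of 71 respiratory chain genes 5 rose, and 4 of these are named as copies of a subunit: COX7AL 8.69-fold, COX4L 7.31-fold, ATPsynbetaL 12.6-fold and Cyt-c1L 1.41-fold. The fifth, ND-15, had no count in yw and 13.7, 10.5 and 6.16 normalized counts in the mutant, over exons that overlap other genes by 15.86%.

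Tubulins, the vacuolar proton pump and the SCF ligase had such copies among the rises too. The maternal gamma-tubulin gammaTub37C had 6.47, 4.66 and 9.90 normalized counts in yw and 187, 211 and 255 in the mutant, a 29.4-fold rise. The maternal alpha-tubulin alphaTub67C rose 6.51-fold and alphaTub85E 11.8-fold. Of the pump, the copies Vha16-5 and VhaM9.7-a rose: Vha16-5 went from 18.3, 14.0 and 5.33 to 147, 139 and 134.2, and VhaM9.7-a, with 3 counts over the yw libraries, was 46.0-fold (95% counting interval 15.4 to 226) higher. PCNA2 rose 2.33-fold to 168 ± 3.34 (SD, n = 3) normalized counts, whereas PCNA, the replication clamp, had 6712 ± 424 (SD, n = 3) and 7248 ± 82.4 (SD, n = 3) and was not called. SkpB rose 3.10-fold, and Prosbeta2R2, a testis copy of a proteasome subunit, 4.17-fold to 731 ± 22.7 (SD, n = 3), while of the 32 proteasome subunits tested none rose. How the counting treated reads that fit both copies is not given in the sources used here, so values of close copies are uncertain. The defining testis genes were nearly absent, with 7 of 8 testis markers under 1 CPM in all 6 libraries.

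Extracellular matrix and integrins held the largest share of rises among the 29 lists in the plot of gene lists. Outside that plot the list of testis transcription and spermatid genes had a larger share, with 6 of 10 tested genes higher (60%). Basement membranes are sheets of collagen IV, laminin, perlecan and SPARC that integrins attach to. Of 38 tested genes 19 rose (50%) and 5 fell (13.2%). Col4a1, a collagen IV chain, had 454, 552 and 515 normalized counts in yw and 1113, 1128 and 1395 in the mutant (2.39-fold), and vkg, the other chain, 196, 189 and 179.6 and 342, 397 and 417 (2.05-fold). Both chains were higher in every mutant library than in any control. The collagen chaperone SPARC rose 1.42-fold, the perlecan trol 1.22-fold and the laminin chains LanA 1.27-fold and LanB2 1.26-fold, but the laminin chain LanB1, at 20352 ± 684 (SD, n = 3) and 21286 ± 1357 (SD, n = 3), was not called. Of larger size were the rises of the integrin ligand Tig (4.29-fold) and of loh, a secreted matrix protein of the ADAMTS kind (5.83-fold).

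The matrix metalloproteases moved apart. Mmp2, which is anchored to membranes, rose from 81.9, 76.8 and 98.2 to 352, 345 and 357 normalized counts (2.02 ± 0.13, DESeq2 adjusted p 1.05e-52). Mmp1, the secreted enzyme, fell from 3829, 3414 and 3427 to 1691, 1741 and 1839.6, to 49.4% of yw (-1.02 ± 0.07, DESeq2 adjusted p 6.16e-47). Neither pair of groups overlapped, which for Mmp1 the naming rule required. Their inhibitor Timp fell to 79.5% of yw. The matrix protein tnc had 44.2, 9.31 and 44.2 in yw and 6.83, 7.36 and 3.69 in the mutant and was called lower, but not without yw replicate 1, yw replicate 3 or Lint-O mutant replicate 3 (DESeq2 adjusted p up to 0.0263).

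Surface adhesion proteins rose as well. Of 56 tested immunoglobulin and leucine-rich adhesion genes 13 rose, and Con and dpr17 fell. After CG7166 came dpr6 at 13.8-fold, side-VII at 11.97-fold and dpr19 at 5.60-fold, all of families known from the matching of neurons with their partners. dpr19 had 209, 139.7 and 153 normalized counts in yw and 1006, 926 and 871 in the mutant. dpr17 went from 1873, 2161 and 1889 to 1194, 1175 and 1205. Of 50 genes for cadherins, catenins and junctions 8 rose and Lac fell, and 13 rose under total count scaling, where 16.4% of all genes rose. The apical polarity gene crb rose 3.02-fold and alpha-Catr 19.6-fold, the latter from 3.42 ± 2.08 (SD, n = 3) normalized counts. Outside that list vari, of the septate junction, fell to 58.7%.

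Muscle proteins rose in part, and they share their list with actins and tubulins. Of 37 genes for actins, tubulins and muscle proteins 15 rose and alphaTub84D fell, and 3 fell with a replicate block. MnM, a sarcomere protein, had 431, 397 and 329.6 normalized counts in yw and 2110.5, 2420.3 and 2415 in the mutant (6.04-fold), and Obsc, a giant kinase of the M band, 204.8, 139 and 167 and 1032, 1130.2 and 1185 (6.539-fold). Both were of middle rank in yw and were named by a rule that required groups without overlap. Of 7 muscle markers the giant kinase bt (3.43-fold) and the light chain Mlc2 (2.31-fold) rose, the heavy chain Mhc was at 469, 438 and 442 and 464, 516 and 586 and was not called, and the flight muscle actin Act88F and the troponins up and wupA were under 1 CPM. The summed level of the 7 was 36.6 to 44.4 CPM in yw and 57.0 to 62.1 CPM in the mutant, and its part in these rises was not tested.

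Cuticle and chitin genes were called in both directions. Of 65 tested members 15 rose (23.1%) and 5 fell (7.69%), against 13.4% and 7.52% over all tested genes. The largest called rise (log2 5.42) and fall (log2 -1.98) are not named here, and called members were not sorted by kind. The chitin deacetylase verm, which shapes tracheal tubes, had 88.4, 62.8 and 60.9 normalized counts in yw and 841, 807 and 909 in the mutant (12.2-fold), and TwdlG, a cuticle protein of another family, rose 19.8-fold from 2.002 ± 0.424 (SD, n = 3). The chitinase Cht2 rose 2.47-fold and the sclerotisation enzyme Ddc 4.16-fold, with its relative amd at 3.61-fold (453, 467 and 546 against 1743, 1740.02 and 1829.8). Among genes that fell were cuticle proteins of the Rebers and Riddiford family and the pigment gene y. Cpr62Bc went from 406, 315 and 405 to 102, 145 and 107, Cpr49Ac from 92.7, 74.5 and 93.6 to 27.3, 34.7 and 24.6, and y from 336, 294 and 331 to 178, 183 and 182. Both lines carry the y1 allele. Of 5 trachea markers 3 rose (verm, serp and btl), the tracheal determinant trh was under 1 CPM in all 6 libraries, and the summed level was 13.4 to 15.4 CPM in yw and 54.0 to 61.3 CPM in the mutant.

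Ion channels and sensory receptors gave rises and no called fall. Over all tested genes 13.4% rose. Under 10 normalized counts in yw 14.2% of all genes rose and 0% fell, and between 10 and 100 it was 22.3% and 0.622%. For members at such levels the lack of falls is therefore no trait of these lists. Of 77 tested channel genes 21 rose (27.3%), and of 69 olfactory, gustatory and ionotropic receptors and odorant-binding proteins 13 rose (18.8%). The voltage-gated calcium channel cac, which triggers transmitter release, was abundant already in yw, with 1354, 1160.4 and 1000.3 normalized counts, and reached 3178, 3394 and 3076 in the mutant (1.46 ± 0.10, DESeq2 adjusted p 1.1e-43). Its relative Ca-alpha1D rose 7.59-fold. Epithelial sodium channels of the pickpocket family stood among the strongest: ppk10 went from 11.9, 5.82 and 2.28 to 199, 119.9 and 138, ppk6, with 2 counts over the yw libraries, was 41.7-fold (95% counting interval 11.1 to 351) higher, and ppk5, with none, was at least 2.86-fold higher against 3 counts per library. The rise of ppk5 reached only 9.75, 7.36 and 8.62 normalized counts. Among receptors Ir40a, a receptor for dry air in the antenna, rose 3.05-fold from 413 ± 43.9 (SD, n = 3), and Ir31a and Ir60e were also called, at low levels.

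Lists of synaptic, neuropeptide and neural fate genes held 17.5%, 12.9% and 10.7% rises, against 13.4% over all tested genes. Of 40 genes for synaptic release and neurotransmitters 7 rose, and the SNARE genes Snap24 and Syb fell. Syt14 had 58.2, 51.2 and 42.6 normalized counts in yw and 518, 493 and 449 in the mutant (9.75-fold), over exons of which 24.39% overlap another gene. Of 31 neuropeptides and receptors 4 rose and 1 fell: Crz, corazonin, rose from 40.96, 39.6 and 28.9 to 226, 183 and 155, and ITP, ion transport peptide, fell to 72.8%. Of 28 neural fate transcription factors 3 rose, among them the eye selector ey, from 8.62, 6.98 and 2.28 to 40.96, 44.2 and 45.6. Neuron markers gave 1 rise (cac) among 7, and nSyb had 8.62, 8.15 and 11.4 normalized counts in yw and 19.5, 10.5 and 8.62 in the mutant and was not called.

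**Figure D4:**
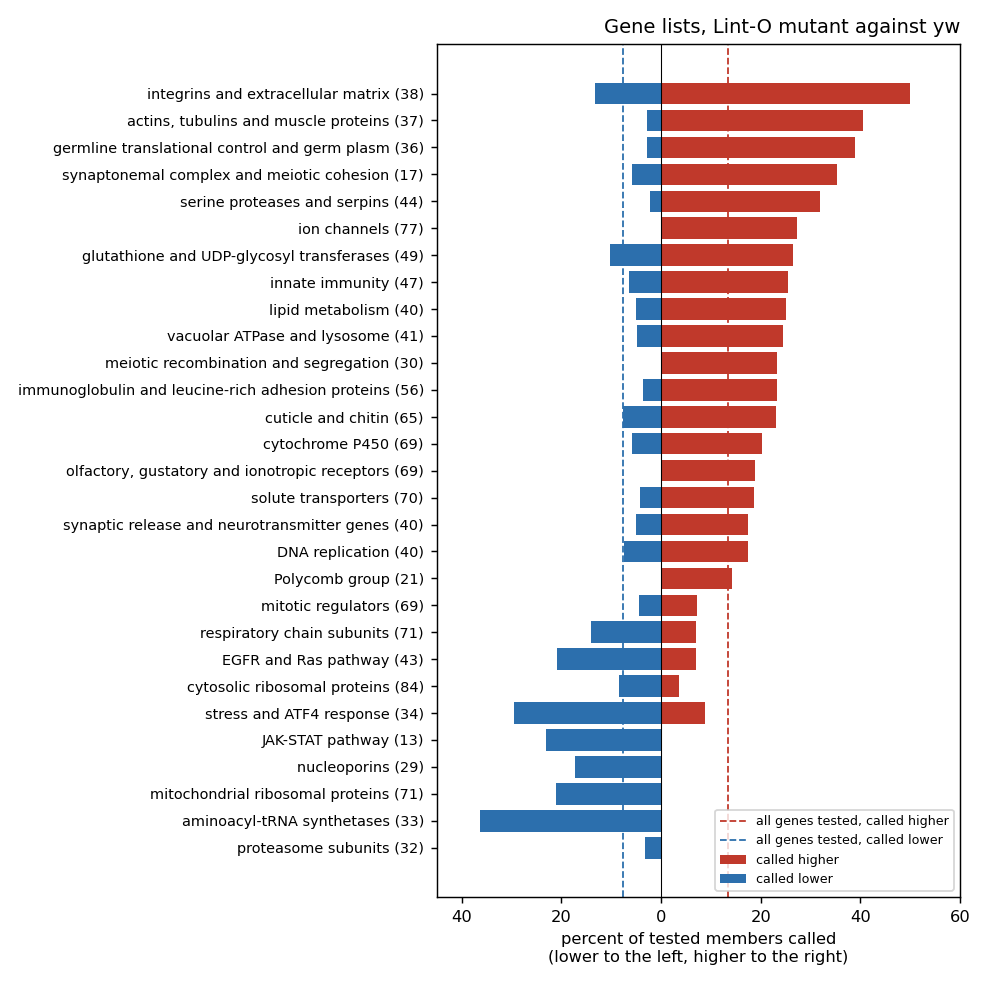
Percent of the tested members of 29 gene lists that were called higher (red, to the right) or lower (blue, to the left) in the Lint-O mutant, with the number of tested members in parentheses and dashed lines at the shares over all tested genes (13.4% and 7.52%). The lists of matrix genes, of actins, tubulins and muscle proteins, of germline translational control and of the synaptonemal complex reach furthest to the right. Lists of tRNA synthetases, mitochondrial ribosomal proteins, JAK-STAT genes, nucleoporins and proteasome subunits have falls only.

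Signalling genes moved in both directions. Of 43 tested genes of the EGFR and Ras pathway 3 rose and 9 fell, a share of falls of 20.9% against 7.52% over all genes. Among all genes at 1000 or more normalized counts in yw 15.4% fell. Of the fallers named below, spi, drk, Pvf2 and sty were at that level, and htl, vn and rho were under it. The 3 that rose are receptor tyrosine kinases. tor, the receptor of the embryonic poles, had 16.2, 17.5 and 9.13 normalized counts in yw and 441, 437 and 474 in the mutant (33.1-fold), Pvr, the PDGF and VEGF receptor, 306, 336 and 303 and 1213, 1299 and 1251 (3.99-fold), and btl, an FGF receptor of trachea, rose 2.03-fold. The other FGF receptor, htl, fell from 278, 322 and 273 to 189, 205.02 and 198. The falls included the EGFR ligands spi (75.5% of yw) and vn (73.9%), the ligand protease rho (69.1%), the Pvr ligand Pvf2 (73.8%), the adaptor drk (75.4%) and the feedback inhibitor sty, from 2196, 2175 and 1739 to 1547, 1469.8 and 1256. Egfr itself had 3279 ± 26.7 (SD, n = 3) and 3361 ± 183 (SD, n = 3) and was not called. The fall of vn was not called without Lint-O mutant replicate 1 or without yw replicate 1 (DESeq2 adjusted p up to 0.0132).

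The JAK-STAT list showed falls only, in 3 of 13 tested genes (23.1%). Over all tested genes 7.52% fell, and among those at 1000 or more normalized counts in yw 15.4% did. Of the 3, only Socs36E was at that level, and so few genes allow a description only. In this pathway secreted Upd ligands bind the receptor Dome and activate Stat92E, which induces its own inhibitor Socs36E. The ligand upd2 (chrX:18240654-18243284, - strand) had 59.3, 48.9 and 73.8 normalized counts in yw and 27.3, 21.03 and 11.1 in the mutant, 32.6% of the yw mean (-1.60 ± 0.33, DESeq2 adjusted p 1.31e-05). The ligand upd3 went from 202, 186 and 214 to 148, 132 and 135 and the inhibitor Socs36E from 4388, 3852 and 3696 to 2911, 2915 and 2940.5. In each of the 3 genes all mutant libraries were under all controls, which for upd2 the rule for the strongest falls required. The receptor dome, at 5075, 4775 and 5208 and 4457, 4940.4 and 5465, was not called. Without yw replicate 3 or Lint-O mutant replicate 2 or 3 the call of upd3 was lost (DESeq2 adjusted p up to 0.02), and the fall of upd2 and that of Socs36E were called in every alternative fit. Other ligands moved both ways: Wnt6 fell to 67.0% (not called without Lint-O mutant replicate 2 or 3 or yw replicate 3, with a DESeq2 adjusted p up to 0.0181), the activin ligand Actbeta rose 24.0-fold from 2.84 ± 1.58 (SD, n = 3), and tok, a protease that frees BMP ligands, rose 4.03-fold.

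The deepest falls were of genes with no common pathway. CG18853, of unknown function, went from 76.5, 83.8 and 73.8 to 12.7, 2.10 and 7.39 normalized counts (-3.38 ± 0.50, DESeq2 adjusted p 1.65e-10). CG9521, a GMC oxidoreductase, was among the abundant RNAs of yw with 6919.8, 6356 and 7159 and fell to 1979, 1876 and 1857, 27.9% of yw (-1.84 ± 0.06, DESeq2 adjusted p 3.93e-186). The receptor mthl9, of the Methuselah family, went from 2196, 2322 and 2367 to 879, 832 and 937, and mth, the founding member, fell to 63.5%. Methuselah genes moved both ways, since mthl7 rose from 3.23, 2.33 and 2.28 to 143, 133.5 and 148 and 4 of the 13 tested rose. The lipid phosphatase wun2, which guides germ cells in the embryo, had 53.9, 45.4 and 59.4 and 12.7, 16.8 and 29.6. Of the other strong falls CG44098 was at 34.9% of yw, CG6398 at 37.8% and lncRNA:CR45826 at 40.8%, and CG13215 lost its call without Lint-O mutant replicate 1, yw replicate 1 or yw replicate 3 (DESeq2 adjusted p up to 0.0299).

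Among named genes of middle rank the falls were those of thw, to 43.2% of yw, kel, a ring canal protein of the ovary, to 59.0%, the cytochrome Cyp6d5 to 61.4%, hpRNA:CR32205, a hairpin RNA gene, to 53.4%, Galt, of galactose metabolism, to 55.2%, the serpin Spn27A to 68.8%, the kinase adaptor Cka to 69.6% and the splicing factor Cdc5 to 69.1%. Normalized counts of kel were 5956, 4999.98 and 4977 in yw and 3122, 3106 and 3178 in the mutant, and those of thw 2151, 2192 and 2058 and 849, 987 and 927. In all of these the groups did not overlap, which the rule for naming genes of middle rank required. Their counterparts among the rises, besides those given above, were Rhp at 6.57-fold, the metalloprotease Kul at 5.69-fold, Pask at 5.25-fold, the phosphate transporter NaPi-III at 3.52-fold, the sulfotransferase St3 at 2.98-fold and the piRNA factor qin at 4.52-fold. Abundant genes that rose were GstO3 (2.41-fold), the cilium transport gene rempA (2.44-fold) and CG17224 (2.28-fold), and CG3168 and lncRNA:CR44138 fell to 52.6% and 44.8%.

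**Figure D5:**
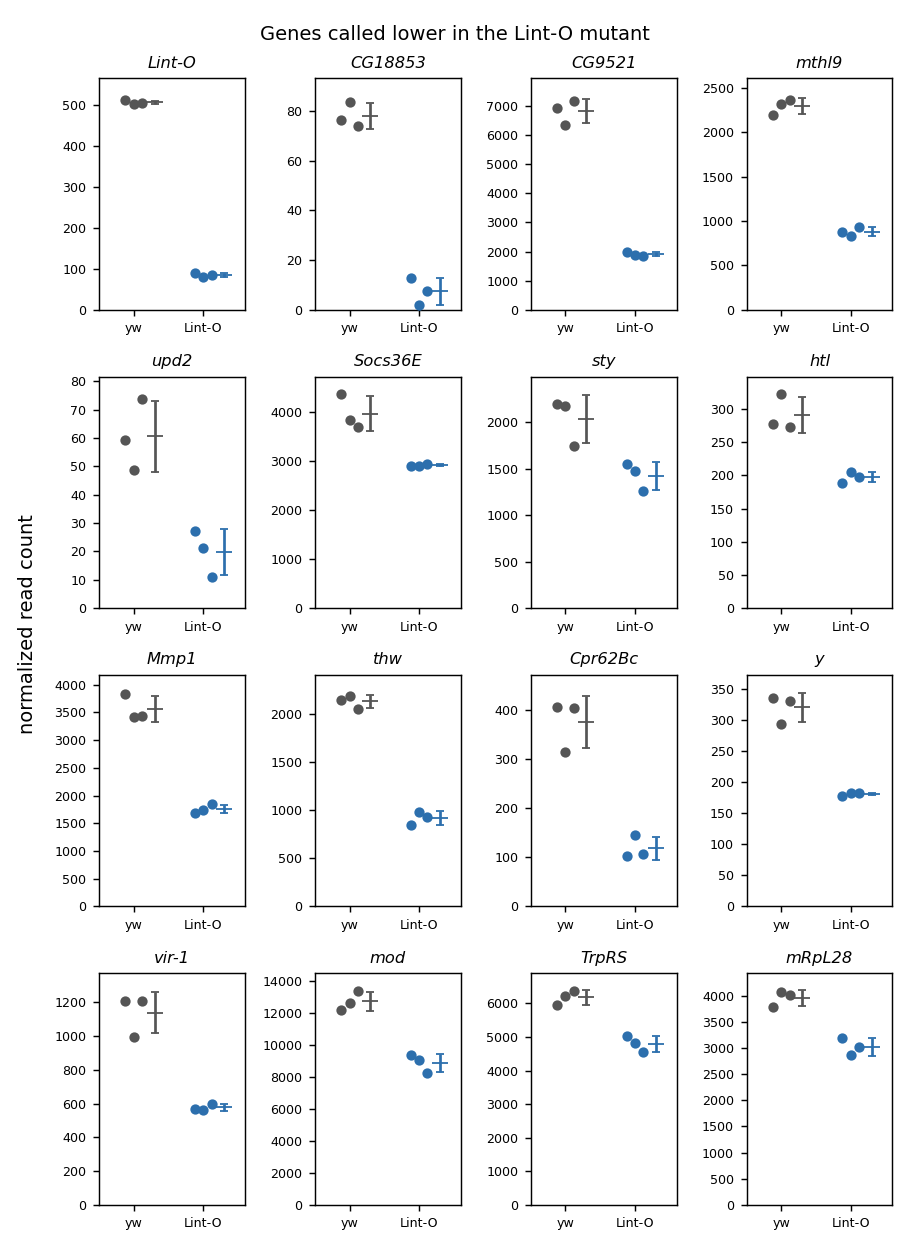
Normalized read counts of 16 genes called lower, with 1 point for each of the 3 yw (grey) and 3 Lint-O mutant (blue) libraries and a bar for the mean ± SD at the right of each group. Each axis is linear and starts at 0, so the falls of CG9521 and mthl9 to 27.9% and 38.5% of yw can be set beside those of TrpRS and mRpL28 to 77.6% and 76.3%.

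Enzymes of metabolism and detoxification were called in both directions. Of 69 tested cytochrome P450 genes 14 rose and 4 fell, and of 49 glutathione and UDP-glycosyl transferases 13 rose and 5 fell. Cyp301a1, of cuticle formation, had 141, 164 and 179 normalized counts in yw and 559, 483 and 594 in the mutant. Of 44 serine proteases and serpins 14 rose and Spn27A fell. Of 40 lipid genes 10 rose and 2 fell, led by the lipase Lip3 (6.10-fold) and the desaturase Desat2 (5.27-fold), and apolpp, the lipid carrier, rose from 425, 400.4 and 219.99 to 1388, 1500.3 and 1101. Of 44 genes of sugar metabolism 6 rose and 7 fell, or 9 and 4 with total count scaling. The trehalose synthase Tps1 rose 13.1-fold from 9.97 ± 1.86 (SD, n = 3) and the gluconeogenic enzyme fbp 3.00-fold, while Galt fell from 901, 1023 and 1075 to 509, 544 and 603. Of 41 genes for the proton pump and lysosome 10 rose and 2 fell, and of 70 solute transporters 13 rose and 3 fell.

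Small falls were common in some lists of translation and mitochondrial genes, which are abundant, and among all genes at 1000 or more normalized counts in yw 15.4% fell. Of 33 tested aminoacyl-tRNA synthetase genes 12 fell (36.4%) and none rose, and of 71 mitochondrial ribosomal protein genes 15 fell (21.1%) and none rose. Each of these falls was less than 0.5 on the log2 scale. TrpRS had 5942, 6235 and 6383 normalized counts in yw and 5017, 4831 and 4551 in the mutant, GlyRS 7959, 8261 and 8755 and 6498, 6586 and 6699, and mRpL28 3789, 4076 and 4012 and 3187, 2858 and 3013. The groups were apart in these genes but the distance was a fraction of that seen for the rises. Of 84 cytosolic ribosomal proteins 7 fell, or 13 with a replicate block, of 29 nucleoporins 5 and of 71 respiratory subunits 10. With total counts as the scaling the falls were 8 for the synthetases, 10 for the mitochondrial ribosome, 3 for cytosolic ribosomal proteins, 2 for nucleoporins and 5 for the respiratory chain. Single genes of the nucleolus and of histone chaperoning that fell were mod, at 69.8% of yw (12171, 12600.05 and 13391 against 9359, 9041 and 8222), Nlp at 75.2% and Nph at 82.9%.

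Stress genes were mixed. Of 34 tested genes for stress and the ATF4 response 10 fell and 3 rose (7 and 6 with total count scaling), and Mmp1 and upd3 are 2 of the 10. Of 26 chaperonin and heat shock genes 7 rose and 3 fell. The inducible Hsp68 had 801, 781 and 641 normalized counts in yw and 1584, 2185 and 2314 in the mutant, and Hsp26, a small heat shock protein, 3772, 3772 and 3769 and 5314, 5378 and 5335. Of 27 cell death genes 6 rose and 3 fell, among the former the caspase Damm (9.696-fold from 6.81 ± 3.20 (SD, n = 3)) and Debcl, of the Bcl-2 family (2.35-fold).

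Lists for the cell cycle and chromatin held called genes mostly of small change. Of 69 mitotic regulators 5 rose and 3 fell (1 fell with a replicate block), with log2 fold changes between -0.29 and 0.39 among the called. CycB was at 14917, 14664 and 15735 in yw and 14475, 14404 and 14894 in the mutant. Of 40 replication genes 7 rose and 3 fell, and PCNA2 was the only one of them past 1 on the log2 scale. Of 21 Polycomb group genes 3 rose, of 17 insulator genes Ibf2 rose and ZIPIC fell, and of 26 Hippo pathway genes crb rose and 1, Diap1, was called lower, but not in 11 of 16 alternative fits with edgeR and total count scaling among them. E(z), the Polycomb methyltransferase, had 1721, 1844 and 1826 and 1558, 1656 and 1614, Pc 503, 531 and 400.4 and 479.8, 467 and 438, and CTCF 1139, 1226 and 1149 and 1023, 1091 and 1209, and none of these was called. Of dosage compensation genes msl-2 fell to 71.0% and lncRNA:roX1 rose 1.78-fold.

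The mutants were last set against each other directly, since both comparisons with yw share the control libraries. Of the 9097 genes that this test covered 1358 (14.9%) differed between the Lint-O and the L(3)mbt mutant. Of the 1396 genes called higher in the Lint-O mutant 1380 could be tested, and 484 differed: 403 lay further from yw in the L(3)mbt than in the Lint-O mutant, and 81 the other way round. Of the 784 called lower 132 differed, 60 further from yw in the L(3)mbt and 72 in the Lint-O mutant. The Lint-O libraries enter both tests, so these counts are a description. By the stocks the study lists, the mutants also differ in strain background, so mutation and background cannot be told apart here. Genes whose levels were alike included CG7202, at 87.0 ± 15.2 (SD, n = 3) in the Lint-O and 100 ± 3.81 (SD, n = 3) in the L(3)mbt mutant, and Srg3, at 3885 ± 320.3 (SD, n = 3) and 4149 ± 220.4 (SD, n = 3), with a difference of -0.09 ± 0.09 on the log2 scale that was not called.

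Genes higher in the L(3)mbt mutant included several described above. Sting reached 10131, 10010.3 and 9136 normalized counts there against 4416, 4284 and 4156 in the Lint-O mutant (Lint-O over L(3)mbt, log2 -1.19 ± 0.06, DESeq2 adjusted p 1.26e-86). RpS5b reached 22850.5, 21877 and 24352, verm 5624, 5891 and 5781 and Col4a1 2696, 2927 and 2697, and Mmp2 1086, 1089 and 1036, all above every Lint-O mutant library. Some falls went deeper there too: mthl9 was at 158, 157 and 188 and Galt at 131, 133 and 157. The reverse held for CG7166, with 648, 669 and 824 against 1053, 1050.3 and 839 (log2 0.46 ± 0.12, DESeq2 adjusted p 0.00115), and for ppk10, with 89.2, 75.4 and 98.6 against 199, 119.9 and 138 (DESeq2 adjusted p 0.00956).

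The falls of signalling genes differed between the mutants. upd2 had 61.01, 61.8 and 57.5 normalized counts in the L(3)mbt mutant, within reach of the yw values, and 27.3, 21.03 and 11.1 in the Lint-O mutant (log2 -1.57 ± 0.33, DESeq2 adjusted p 2.87e-05). upd3 had 282, 292 and 270.3, above its yw values, against 148, 132 and 135 (log2 -1.02 ± 0.14, DESeq2 adjusted p 3.42e-11). Socs36E (3859, 4278 and 3877), htl (358, 338 and 377), kel (4617, 4762 and 4636), Mmp1 (2858, 2951 and 2657), y (285, 354 and 259.7), spz (189, 215 and 168) and Wnt6 (210.4, 210.4 and 242) were also lower in the Lint-O than in the L(3)mbt mutant in the direct test, with adjusted p from 8.87e-21 to 0.000192 (DESeq2). For spi, vn and Pvf2 the direct difference was not called, at log2 -0.02 ± 0.05, 0.16 ± 0.11 and -0.08 ± 0.09, so the EGFR ligands are not shown to differ between the mutants. LanA and the fatty acid synthase FASN1 rose in the Lint-O mutant and stood at 16724, 18494 and 17734 and 28993, 34254 and 32148 in the L(3)mbt mutant, below every Lint-O mutant library (DESeq2 adjusted p 2.96e-12 and 2.8e-17). These genes were chosen for the direct comparison after their values were seen. The y1 allele of the yw and Lint-O lines is not listed for the L(3)mbt stock. For y, the mutation and the allele therefore cannot be told apart.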

How the data were processed

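Poly(A) RNA-seq reads were mapped by the authors with HISAT2 to the dm6 genome after reads of ribosomal RNA had been set aside, and counted with featureCounts. The deposited table holds raw read counts per gene for 9 libraries, with 18681293 to 31519287 counts in the 6 compared here. Versions, the strand setting and the treatment of shared exons are not given in the sources used here. Of 17611 gene IDs 17559 were named from the Ensembl annotation of dm6 coordinates, which also gave positions and overlaps.

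Counts of all 9 libraries were fitted by group with DESeq2 1.42.0 in R 4.3.3 (median of ratios scaling, Wald test, default filter), and a gene was called at a Benjamini-Hochberg adjusted p under 0.01 over all tested genes. Fold changes are fitted values without shrinkage, and the SE is on the log2 scale. Normalized counts are counts divided by size factors, and CPM is counts per 1000000 counts of a library. A gene with no yw count is given as at least a fold over 3 counts per library, and a gene with 1 to 3 yw counts as a ratio with an exact 95% interval that covers counting error only. Groups of 3 against 3 cannot go below a two-sided exact permutation p of 0.1, so no single-gene permutation test was run.

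Named genes are the 12 strongest, 15 of middle rank (yw mean of at least 100) and 8 abundant ones (at least 1000) in each direction, up to 4 called members per list, members of runs and markers. The strongest, middle-rank and abundant genes were drawn from called genes with non-overlapping groups and a mean of at least 50 in the higher group. For them the lack of overlap is a condition of naming and not a result. Not every gene the rule allows is named, and list members named beyond it were chosen after their values were seen. The 59 function lists and 11 marker lists were chosen with earlier results of these data known, and are described by counts with no test.

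Deviations of same-numbered yw and Lint-O mutant libraries from their group means correlated at 0.154, 0.164 and 0.404 over 7065 genes, all above 0.1. The main fit left the libraries unpaired, and a replicate block that pairs them by number was run as an alternative. Yw replicate 2 correlated with Lint-O mutant replicate 1 at 0.185 and yw replicate 1 with Lint-O mutant replicate 2 at 0.135, so only replicate 3 stood apart and the numbers of replicates 1 and 2 could not be told apart. Alternatives were edgeR 4.0.16 (quasi-likelihood, TMM), TMM or total count scaling, other filters, a fit of 2 groups, a replicate block, other thresholds and leaving out each library. The steps were tested on simulated data. Figures and summaries used Python 3.11.15, pandas 2.3.3 and matplotlib 3.10.9.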

Additional observations from a re-analysis of the deposited data

How the results depend on the processing

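The 1396 rises numbered 1163 to 1364 with each library left out, and the 784 falls 500 to 853. edgeR called 1365 higher and 737 lower, of which 1322 and 702 were shared with DESeq2. TMM scaling gave 1362 and 869, the fit of 2 groups 1261 and 738, a mean count filter 1415 and 799 and no filter 1354 and 745. Total count scaling kept all 1396 rises among its 1665 but left 473 falls, as it moved the median log2 fold change of tested genes by 0.05. A replicate block, which pairs the libraries by number, gave 1323 and 775 and changed no call of a named gene except that of pds5. An adjusted p under 0.05 gave 1761 and 1221, and a required log2 fold change of 1 gave 769 and 25. Over 16 alternative fits no named gene that was called changed direction. The call was lost in at least 1 of them for CG13215, Con, Diap1, Ibf2, Ir60e, Lint-1, RluA-1, Syb, Wnt6, ZIPIC, cact, mip130, pds5, serp, spz, tnc, upd3 and vn, with adjusted p (DESeq2 or edgeR) up to 0.0848, and elav, not called, was called in 1. Diap1 and pds5 lost it in 11 of the 16.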

Other observations

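The first groups given here held shares of rises near or under the 13.4% over all tested genes, at 15.8% for axon guidance, 16.7% for kinesins and dyneins and 9.09% for tetraspanins and innexins. Of 38 tested axon guidance genes 6 rose and none fell, among them the adhesion receptor Dscam1, from 759.9, 563 and 679 normalized counts (yw) to 1428, 1404 and 1548 (Lint-O mutant), and the Slit receptor robo1, from 1243, 1124 and 1101 to 1715, 1835 and 1629. Of 36 kinesins and dyneins 6 rose and 1 fell, led by the axonemal dynein gene Dhc36C (6.95-fold) and the kinesin Klp54D (3.13-fold, DESeq2 adjusted p 2.91e-80). Of 33 tetraspanins and innexins 3 rose and none fell. zpg, the gap junction protein of germ cells, was at 2.16, 1.16 and 3.04 and 40.0, 24.2 and 18.5, and Inx3, of epithelia, at 1324, 1110.3 and 1234 and 2177, 2369.8 and 2234. In all of these genes the groups did not overlap.

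Of 33 ovarian somatic genes 5 rose and none fell, with fs(1)N, of the vitelline membrane, at 374, 338 and 378 in yw and 999.7, 1181 and 1116 in the mutant, and the yolk protein gene Yp3 at 3.06-fold. Of 10 testis transcription and spermatid genes 6 rose, including vis (2.83-fold) and topi (1.56-fold). Of 42 Wnt and Hedgehog genes 2 rose and 4 fell. The 2 that rose were Wnt2, from 384, 363 and 422 to 732, 749 and 825, and the receptor kinase Ror, from 508, 493 and 494 to 1135, 1061 and 1036. Of 25 BMP and activin genes 4 rose and 4 fell, and of 26 Notch genes 2 rose and 2 fell. Of 33 ecdysone response genes 2 rose and 1 fell, with the ecdysteroid synthesis gene spo at 2.51-fold. Of 14 GMC oxidoreductases 4 rose, ninaG, of visual pigment synthesis, at 4.96-fold, and 2 fell. Of 9 heme peroxidases 3 rose and none fell. Of 47 DNA repair genes 4 rose, mus101 at 1.36-fold, and none fell, and of 21 genes for HP1 proteins and H3K9 methylation 3 rose and none fell. Of 18 Hox and homeodomain patterning genes 2 rose and 1 fell, hry, at 73.1% of yw, and of 18 SCF and other ubiquitin ligase genes 1 rose and 3 fell. None of 3 tested imaginal disc markers was called.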
